A study of Rattus norvegicus with 20 samples.

Results

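The 6 genes described here are markers of striatal medium spiny neurons: Drd1, Drd2, Adora2a, Rgs9, Ppp1r1b and Pde10a. They were chosen by gene symbol for their level in each subcortical white matter library and for the contrast of white matter with spinal cord, with values of these libraries already known. All 6 were found among the 30443 entries of the expression table, and all 6 were among the 15210 entries that reached 1 FPKM in at least 1 library. FPKM counts sequenced fragments relative to transcript length and to the mapped reads of the library, so levels can be set side by side between genes. The depth behind a single gene cannot be recovered from FPKM and is unknown, and none of the members' values was at 0.1 FPKM, the lowest value the table holds.

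Total RNA was sequenced from 5 regions of 4 adult female Long-Evans rats of wild-type genotype, aged about 6 to 8 months, which gave 20 libraries. All 4 animals, controls included, had received a contusion of 0.7 mm displacement to 1 side of the cord at cervical level 4 and, 2 weeks later, an electrode array in the motor cortex contralateral to the injury. In 2 animals (stimulated 1 and 2) that cortex was stimulated at 10 Hz for 5 h a day, in cycles of 5 min on and 2 min off at 80% of movement threshold, for 1 week, while 2 animals (control 1 and 2) were connected to a stimulator without current. The brain gave 2 blocks of subcortical white matter: region 1, about 5 mm3, came from the implanted hemisphere beneath the electrodes and region 2 from the opposite hemisphere. The cord gave region 3, rostral to the lesion, region 4, the lesion itself, and region 5, caudal to it. Each region therefore had 2 control and 2 stimulated libraries, and no uninjured animal and no dissected striatum was among the samples analysed here.

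Medium spiny neurons are the projection neurons of the striatum, the nucleus that lies directly beneath the subcortical white matter. They fall into a direct pathway class that carries the dopamine D1 receptor (Drd1) and an indirect pathway class that carries the dopamine D2 receptor (Drd2) and the adenosine A2a receptor (Adora2a). In both classes these receptors act on cyclic AMP, with Rgs9 shortening the signal of the inhibitory G proteins, Pde10a breaking down cyclic nucleotides and Ppp1r1b (DARPP-32) passing the signal on as a regulated inhibitor of protein phosphatase 1. None of the 6 is found in striatum alone: Drd1, Ppp1r1b and Pde10a are also known from cortical neurons, and Drd2 from spinal neurons.

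The start regions of 3 members are shown because their levels differed most and least between the white matter libraries described below: Drd2 and Rgs9 had the largest excess in 1 library and Pde10a the smallest. Of the 6 members, 4 were matched in the RefSeq promoter table for the rat assembly GRCr8, a later build than the Rnor6 used by the authors, and Adora2a and Ppp1r1b were not in it. Each line gives the 250 bases before an annotated start, read 5′ to 3′ on the strand of the gene, in lower case with the letters GGGCGG or TGACG, or their reverse complements CCGCCC and CGTCA, in capitals.
Drd2, chr8:58605153-58605402, plus strand: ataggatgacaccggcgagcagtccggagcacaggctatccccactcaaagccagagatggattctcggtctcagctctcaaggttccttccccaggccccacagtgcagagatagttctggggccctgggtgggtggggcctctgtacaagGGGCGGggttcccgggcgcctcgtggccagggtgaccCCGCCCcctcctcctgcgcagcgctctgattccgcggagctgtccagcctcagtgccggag
Rgs9, chr10:94770388-94770637, minus strand: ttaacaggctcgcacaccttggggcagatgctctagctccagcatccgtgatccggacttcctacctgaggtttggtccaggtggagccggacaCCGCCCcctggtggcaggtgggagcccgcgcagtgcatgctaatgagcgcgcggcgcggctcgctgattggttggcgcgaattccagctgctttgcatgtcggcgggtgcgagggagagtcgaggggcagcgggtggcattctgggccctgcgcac
Pde10a, chr1:54765669-54765918, minus strand: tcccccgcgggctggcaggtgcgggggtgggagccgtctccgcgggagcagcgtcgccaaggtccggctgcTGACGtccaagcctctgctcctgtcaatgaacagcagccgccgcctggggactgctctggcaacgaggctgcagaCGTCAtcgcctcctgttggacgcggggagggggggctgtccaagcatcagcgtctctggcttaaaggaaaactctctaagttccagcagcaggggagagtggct

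GGGCGG is the core of the GC box and TGACG is a part of TGACGTCA, the cyclic AMP response element. The Drd2 window held GGGCGG 2 times and the Rgs9 window 1 time, counted on both strands. The Pde10a window, the more upstream of the gene's 2 annotated starts in the table, held TGACG 2 times and no GGGCGG. The other Pde10a window, chr1:54501207-54501456, is not shown and held GGGCGG 1 time and TGACG 0 times. None of the windows held TGACGTCA or the TATA box letters TATAAA, on either strand. Over the 33469 windows of the same length in the table, 30.5% held GGGCGG, 18.2% held TGACG, 12.9% held TATAAA and 1.59% held TGACGTCA. The matches are a description of the letters, and the window of Drd1, the other matched member, is not shown.

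The libraries were broadly alike in how much they detected, with 12497 to 13546 genes at 1 FPKM or more. The white matter blocks held transcripts of cortical excitatory neurons: Slc17a7, the vesicular glutamate transporter of such neurons, was at 225 to 329 FPKM in the 8 white matter libraries and at 0.318 to 11.8 in the 12 cord libraries, and Tbr1, a cortical transcription factor, was at 10.7 to 18.7 and at most 0.105. Mbp, the myelin basic protein gene, was at 385 to 1484 FPKM in white matter and at 3835.5 to 5813 in cord. The deposited tissue name therefore goes with a block that also contained RNA of cortical neurons and less myelin RNA than the cord. Across all genes kept, the median log2 difference of white matter from cord was -0.18, and the differences given below are read against it. In bulk tissue, fewer cells of a type and less RNA per cell cannot be told apart.

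The dopamine receptors Drd1 and Drd2 ran in opposite directions between brain and cord, and the ranges of Adora2a overlapped. Drd1 was at 1.46 FPKM in the lowest white matter library, at a median of 1.71 and at 6.64 in the highest, against a lowest, median and highest cord value of 0.365, 0.493 and 0.689. The white matter and cord ranges did not overlap, and the log2 difference of the means was 2.08. Drd2 was at 0.341, 0.454 and 4.05 FPKM in white matter (lowest, median, highest) and at 1.51, 1.97 and 2.82 in cord. The D2 receptor transcript was thus lower in 7 of the 8 white matter libraries than in any cord library, with a log2 difference of -1.84, and the highest white matter library was above all cord libraries. Adora2a, the third receptor, was at 0.706, 0.914 and 6.94 FPKM in white matter and at 0.621, 0.902 and 1.08 in cord. Its medians were close and its ranges overlapped, with a log2 difference of 0.55 that was 0.24 without the region 1 library of stimulated animal 1, described below.

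The signalling proteins that both pathways share were higher in brain on average, with less separation. Rgs9 was at 0.924, 1.30 and 11.0 FPKM in white matter and at 0.389, 0.646 and 0.948 in cord, a log2 difference of 1.32. Only the lowest white matter library reached down into the cord range. Ppp1r1b was the most abundant member in every region, at 12.3, 22.7 and 64.5 FPKM in white matter and at 13.5, 15.4 and 20.8 in cord. Its ranges overlapped and its log2 difference was 0.52, or 0.29 without the same library. Pde10a was at 5.60, 9.45 and 20.8 FPKM in white matter and at 2.53, 3.41 and 4.67 in cord, without overlap and with a log2 difference of 1.53. Among the 15210 genes, 10.3% were non-overlapping and higher in white matter and 16.8% non-overlapping and lower. Of the members, 2 of 6 (Drd1 and Pde10a) were in the first set and 0 in the second, and since the members were chosen on this contrast nothing is read from that count.

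**Figure D1:**
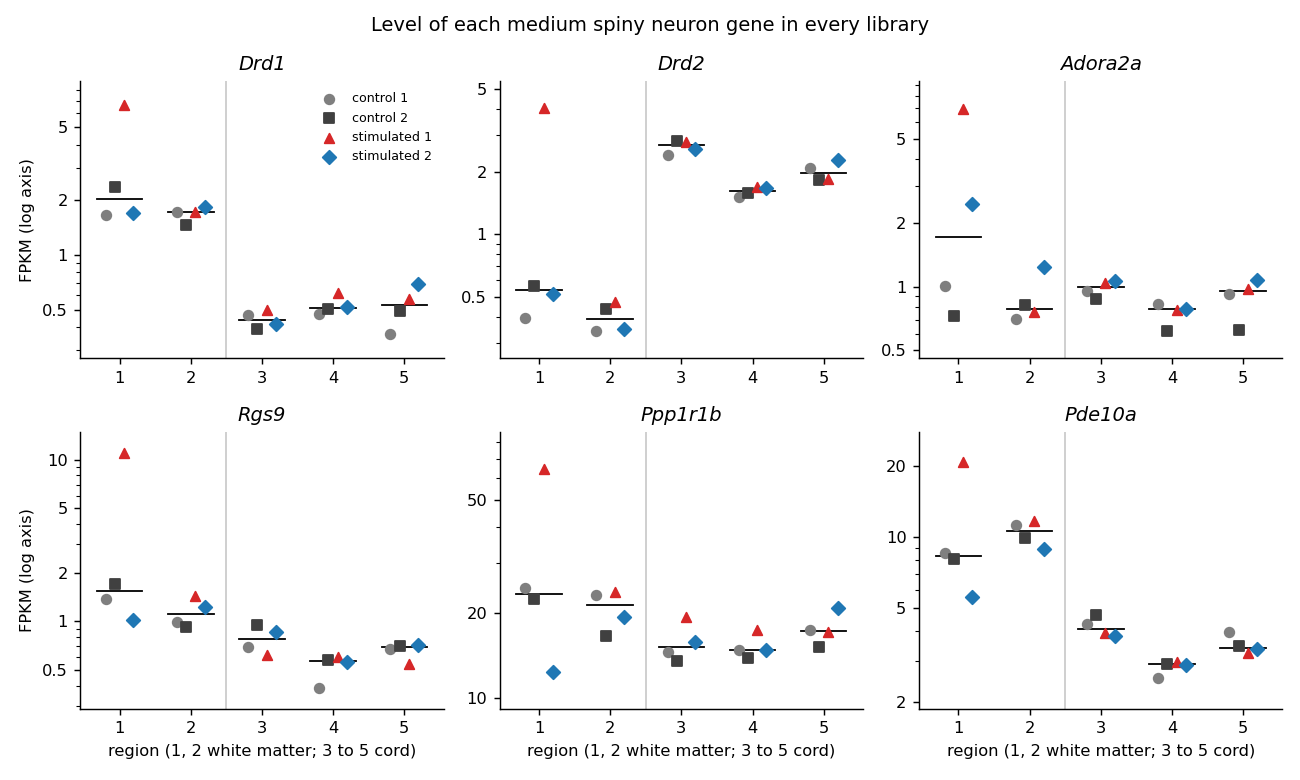
FPKM of the 6 members (log axis) in each of the 20 libraries by region, with a symbol for each animal and a bar at the median of the 4 libraries. The region 1 library of stimulated animal 1 (red triangle) is the highest white matter library in all 6 panels, and Drd2 is lower in the other 7 white matter libraries (0.341 to 0.564 FPKM) than in cord (1.51 to 2.82).

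By the medians of the 5 regions, Drd1 ran from region 1 (2.02 FPKM) over region 2 (1.71) to regions 5, 4 and 3 (0.531, 0.509 and 0.441). The only neighbours in this order whose libraries did not overlap were regions 2 and 5. Drd2 ran from region 3 (2.68) over regions 5 and 4 (1.97 and 1.62) to regions 1 and 2 (0.54 and 0.392). The 3 cord regions did not overlap with each other for Drd2, while region 4 overlapped with region 1 through a single library. For Adora2a, Rgs9 and Ppp1r1b all neighbours overlapped, with region medians of 0.782 to 1.73, 0.570 to 1.55 and 14.7 to 23.3 FPKM. Pde10a was higher in region 2 (median 10.6) than in region 1 (8.35), with overlap, and both were above regions 3, 5 and 4 (4.10, 3.41 and 2.89). Regions 1 and 3, and regions 5 and 4, did not overlap for Pde10a.

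Because Drd1 and Drd2 mark separate classes of medium spiny neuron, their ratio was taken in each library. In white matter Drd1 exceeded Drd2 in 8 of 8 libraries, with a ratio of FPKM values of 3.25 to 5.26 in 7 of them and of 1.64 in the region 1 library of stimulated animal 1. In cord Drd2 exceeded Drd1 in 12 of 12 libraries, at a ratio of 0.138 to 0.363. Within the cord the ratio was lowest in region 3 (0.138 to 0.195), which did not overlap with region 4 (0.309 to 0.363). Adora2a, which accompanies Drd2 in the indirect pathway, was at 1.29 to 4.73 times the level of Drd2 in white matter and at 0.310 to 0.553 times in cord. The ratio of Ppp1r1b to Pde10a was 1.66 to 3.10 in white matter and 2.88 to 6.18 in cord.

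**Figure D2:**
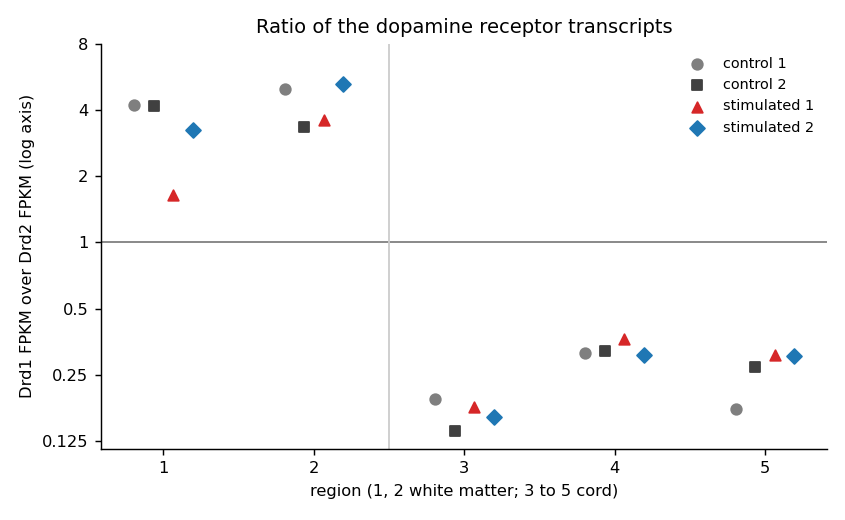
Ratio of Drd1 FPKM to Drd2 FPKM (log axis) in each library by region, with a symbol for each animal and a line at 1. White matter libraries lie above the line and cord libraries below it, and the region 1 library of stimulated animal 1, at 1.64, is the lowest of the white matter libraries.

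The region 1 library of stimulated animal 1 stood apart for all 6 members, a pattern singled out after the values were seen. In the paper's quality summary the same library had the lowest RNA integrity score of the series. The part of RNA integrity in the members' levels was not tested. In control 1, control 2, stimulated 1 and stimulated 2, region 1 held Drd1 at 1.66, 2.36, 6.64 and 1.68 FPKM. For Drd2 the same libraries were at 0.393, 0.564, 4.05 and 0.517 FPKM, and for Adora2a at 1.01, 0.729, 6.94 and 2.45. The stimulated 1 library was highest for each receptor, and stimulated 2 was close to the controls for Drd1 and Drd2 but between them and stimulated 1 for Adora2a. Rgs9 was at 1.38, 1.71, 11.0 and 1.02 FPKM, Ppp1r1b at 24.4, 22.3, 64.5 and 12.3, and Pde10a at 8.57, 8.12, 20.8 and 5.60. Stimulated 2 was the lowest of the 4 for these 3 genes, so the 2 stimulated animals lay at opposite ends.

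In region 2, on the other side of the brain, the same animal did not stand apart. In the order control 1, control 2, stimulated 1 and stimulated 2, Drd1 was at 1.70, 1.46, 1.71 and 1.83 FPKM, Drd2 at 0.341, 0.436, 0.472 and 0.348 and Adora2a at 0.706, 0.820, 0.758 and 1.24. Rgs9 was at 0.985, 0.924, 1.44 and 1.22 FPKM, Ppp1r1b at 23.2, 16.5, 23.7 and 19.3 and Pde10a at 11.3, 9.96, 11.7 and 8.94. The 4 libraries of region 2 were within a factor of 2 of each other for every member.

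Against the other 7 white matter libraries, the region 1 library of stimulated 1 was the highest for 6 of 6 members, where 22.8% of all genes had their highest value in it. It was at least 2-fold above every other white matter library for 5 of 6, where 33 of 15210 genes (0.217%) met that criterion. These counts are a description, since the members were chosen with these values known. The ratio to the next highest library was 7.18 for Drd2, 6.45 for Rgs9, 2.84 for Adora2a and 2.81 for Drd1. Ppp1r1b, at 2.65, lay just inside the 2-fold line and Pde10a, at 1.77, just outside it. In this library Drd2 was above 40.0% of the genes kept and Rgs9 above 68.3%, compared with 4.37% and 17.2% for their means over the other 7.

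Other genes known from medium spiny neurons were read from 3 lists: direct pathway, indirect pathway and shared. Of 29 listed, 28 were in the table and 26 reached 1 FPKM in at least 1 library. The region 1 library of stimulated 1 was the highest of the white matter libraries for 22 of the 26 (over all genes 22.8%). It was at least 2-fold above the rest for 6 (over all genes 0.217%). Those 6 were Syndig1l, Gpr6, Rxrg, Gng7, Isl1 and Tac1. Syndig1l was at 4.78 FPKM against at most 0.530 elsewhere in white matter. Gpr6, an orphan receptor of indirect pathway neurons, was at 2.59 against 0.508. It was at 0.1 in every cord library and reached 1 FPKM in this library alone. The filter thus fixed its place in the counts given here, and nothing is read from it. Rxrg, Gng7, Isl1 and Tac1 were at ratios of 2.47, 2.28, 2.12 and 2.03. Isl1 was at 0.212 FPKM in this library and at the table's lowest value of 0.1 in the others, so its ratio is set by that floor at a very low level. Penk, the enkephalin precursor of the indirect pathway, was at 52.1 FPKM against at most 27.4, and Tac1, the substance P precursor of the direct pathway, at 12.8 against at most 6.32. Together with the 5 members, these genes made up 11 of the 33 that passed the 2-fold line, and Lrrc10b had the largest ratio, 12.0. Not all genes of the lists shared this: Chrm4, Arpp21, Foxp1 and Zfp503 were higher in another white matter library. The sum of the members was 114.0 FPKM in this library and 23.6 to 39.8 in the other 7, and that of the shared list was 368 against 175 to 285.

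Markers of some other cell types were also high in the same library, where 22.8% of all genes had their highest white matter value. All 8 oligodendrocyte genes were highest in it, with ratios to the median of the other 7 libraries of 1.58 to 2.59 and a summed level of 3073 FPKM against 742 to 1973, while in cord the sum was 7547 to 10934. None of 8 cortical excitatory neuron genes and none of 5 general neuron genes was highest in it, and their sums, 321 and 1094 FPKM, were inside the range of the other 7 (274 to 404 and 789 to 1440). Of the striatal interneuron list, 7 of 11 genes were tested, and 3 were highest there while the others were not. The 3 included the cholinergic genes Chat, at 0.522 FPKM against at most 0.304, and Slc5a7, at 0.867 against at most 0.418. Slc5a7, at a ratio of 2.07, was the only tested gene of this list at least 2-fold above the rest. Lhx8 and Npy were at 0.1 FPKM in every library and Nkx2-1 at 0.1 in all white matter libraries. Of 3 tested genes of dopamine neurons none was highest in it, and Slc6a3, the dopamine transporter gene, was listed at 0.1 in every library. Of the list for the deepest cortical layers and the claustrum 4 of 7 were highest in it, with a sum of 34.2 FPKM against 18.8 to 30.0. None of the genes of this deep layer and claustrum list was at least 2-fold above the rest. For subventricular neuroblasts 0 of 2 and for ependyma and choroid plexus 1 of 3 were highest, with sums of 6.88 against 4.13 to 7.28 FPKM and of 2.99 against 0.734 to 4.64. With 22.8% over all genes, nothing is read from the counts on lists of 7 or fewer tested genes. The part of these other cell types in the members' levels was not tested.

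**Figure D3:**
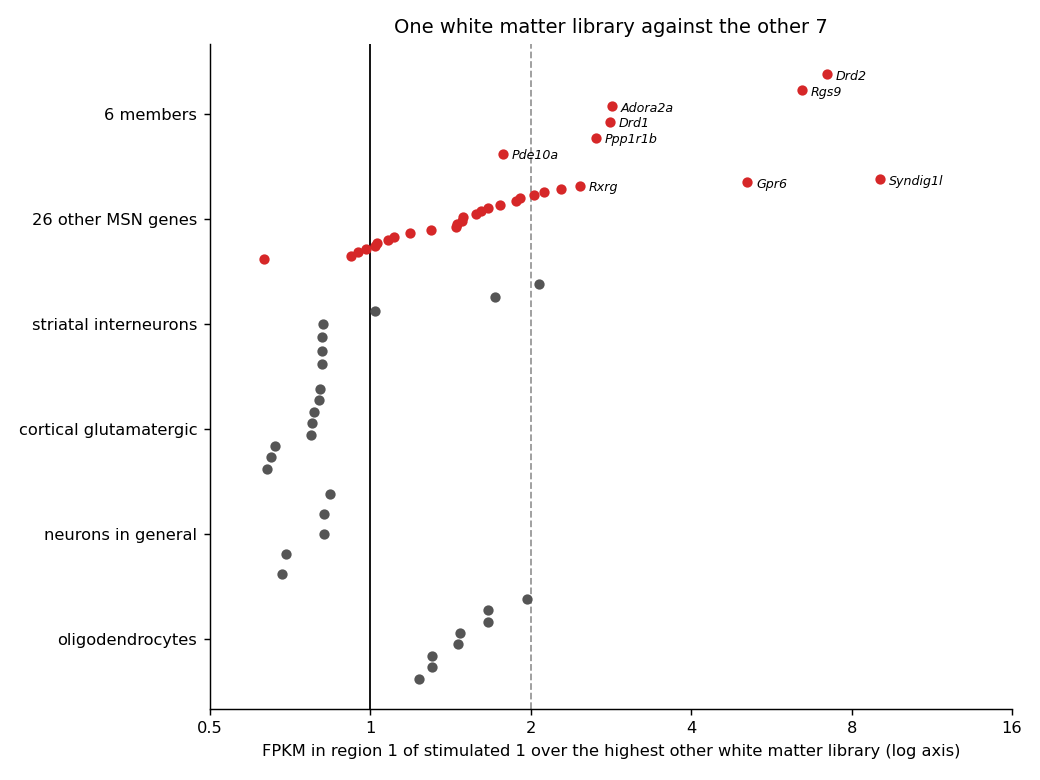
Ratio of the FPKM value in the region 1 library of stimulated animal 1 to the highest of the other 7 white matter libraries (log axis), each point a gene of the list named on the left that was tested. Points right of the solid line at 1 have their highest white matter value in this library, and 5 of the 6 members lie right of the dashed line at 2, with Drd2 at 7.18 and Pde10a at 1.77.

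A different white matter library also stood apart, but not for these genes. In the region 1 library of stimulated 2, 402 genes (2.64%) were at least 2-fold above every other white matter library, and 0 of the members and 0 of the 26 other medium spiny neuron genes were among them. No member was highest in any of the other 7 libraries. The region 2 library of the same animal, stimulated 2, followed with 106 genes above the 2-fold line. In the control libraries of white matter and the region 2 library of stimulated 1, at most 8 genes passed it.

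The hemispheres were compared to ask whether the block under the electrodes differed from the opposite one. Within the animals, Drd2 was higher in region 1 in 4 of 4, by a log2 difference of 0.20 in control 1, 0.37 in control 2, 3.10 in stimulated 1 and 0.57 in stimulated 2. Adora2a, Rgs9 and Ppp1r1b were higher in region 1 in 3 of 4 animals, Drd1 in 2 of 4 and Pde10a in 1 of 4. The mean log2 differences were 1.06 ± 1.37 for Drd2, 1.13 ± 1.46 for Adora2a, 1.01 ± 1.37 for Rgs9, 0.62 ± 0.96 for Drd1, 0.33 ± 0.87 for Ppp1r1b and -0.14 ± 0.66 for Pde10a (SD, n = 4 animals). The spread between animals was larger than the mean in all 6. In the limma model of all 20 libraries, 0 of 6 members passed an adjusted p of 0.05, where 8.61% of all genes did, and 3 had an unadjusted p under 0.05. No member separated the regions without overlap, as 4.4% of all genes did with region 1 higher and 3.16% with region 1 lower. The members' adjusted p ran from 0.127 (Adora2a) to 0.789 (Pde10a) in this limma model, which ignores that both regions come from the same animals. With the animal as a block in limma, adjusted p ran from 0.0798 (Adora2a) to 0.757 (Pde10a), and no member passed. The unadjusted p of that fit was 0.0454 for Drd1, 0.0264 for Drd2, 0.0133 for Adora2a and 0.0479 for Rgs9. In limma without the block and without the region 1 library of stimulated 1, it was 0.424, 0.0703, 0.125 and 0.284. The members were chosen with the values of both regions known, so these p-values are a description and no support for a difference. An exact permutation test of the 4 within-animal differences cannot go below a two-sided p of 0.125.

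Without the region 1 library of stimulated 1, the picture changed for Pde10a. Its log2 difference was then -0.51 (SE 0.14, limma adjusted p = 0.0421), and it was the only member called. That library was left out after its member values were seen to be high, and these values were known when the members were chosen. Without the whole animal the Pde10a difference was -0.46 (limma adjusted p = 0.253) and 0 members were called, so no direction is read from it. Drd1, Drd2, Adora2a and Rgs9 kept a positive difference of 0.17, 0.30, 0.50 and 0.25, and Ppp1r1b turned to -0.12. Of the 26 other medium spiny neuron genes, 1 was called with all libraries, Zfp503, a transcription factor, higher in region 1 by 0.76 (SE 0.18, limma adjusted p = 0.0164), where 6.86% of all genes were called higher. It was not called on the log2(FPKM + 1) scale (adjusted p = 0.0552), after quantile normalization (0.0823) or without control 1, control 2 or stimulated 1 in limma (0.108, 0.0609 and 0.243). The median log2 difference of the 26 was 0.05, compared with 0.06 over all genes. The oligodendrocyte genes moved between the same regions, with 6 of 8 called higher in region 1 by limma and summed levels of 1553 to 3073 FPKM in region 1 and 742 to 1444 in region 2. Their part in the members' differences was not tested.

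**Figure D4:**
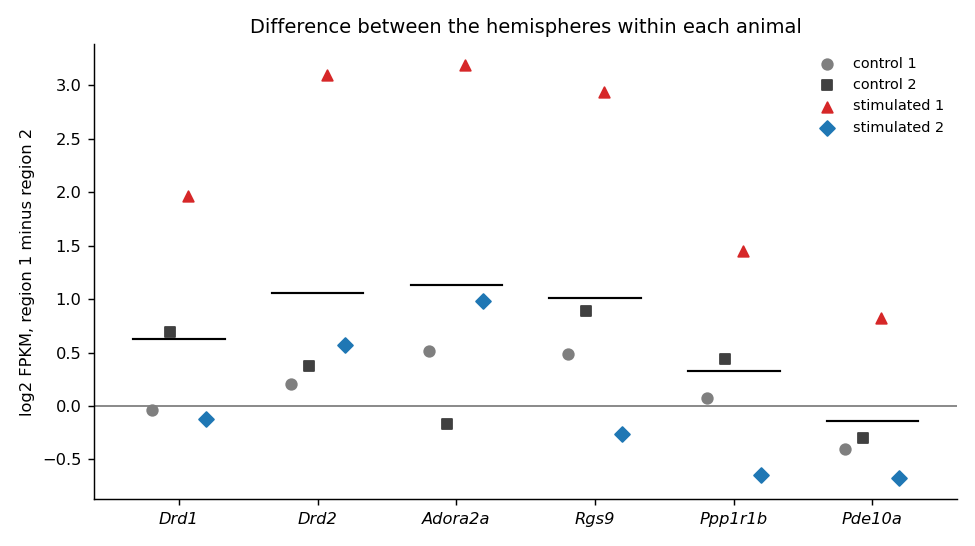
Log2 FPKM of region 1 minus region 2 for each member within each of the 4 animals, with a bar at the mean. Stimulated 1 (red triangle) is the highest for all 6 members, from 0.83 for Pde10a to 3.19 for Adora2a, while the other 3 animals lie between -0.68 and 0.98.

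Outside the members, medium spiny neuron genes differed between white matter and cord in both directions. Of the 26 tested, 25 passed an adjusted p of 0.05 in limma, 15 higher in white matter and 10 lower, where 72.2% of all genes passed, 25.0% higher and 47.1% lower. Higher genes included Chrm4, a muscarinic receptor of direct pathway neurons (log2 difference 3.94, SE 0.13, limma adjusted p = 2.68e-15), Arpp21 (3.94), Rasd2 (3.23) and the transcription factor Bcl11b (3.01). Lower genes included the peptide precursors Tac1 (-1.78) and Penk (-1.32), the transcription factor Isl1 (-1.99) and Syndig1l (-2.53). Tac1 and Penk are also known from neurons of the dorsal horn, and Arpp21 and Bcl11b from cortical neurons. Without the region 1 library of stimulated 1 these named genes kept their direction and their calls in limma.

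Within the cord, the members were highest rostral to the lesion for 4 of 6 genes. Drd2 was at 2.39, 2.82, 2.78 and 2.58 FPKM in region 3 and at 1.51, 1.57, 1.69 and 1.67 in region 4 (control 1, control 2, stimulated 1, stimulated 2). Pde10a was at 4.27, 4.67, 3.92 and 3.81 FPKM in region 3 and at 2.53, 2.90, 2.97 and 2.89 in region 4. For Drd2, Adora2a, Rgs9 and Pde10a every region 3 library was above every region 4 library, which held for 15.7% of all genes. None of the members passed limma's test between regions 3 and 4, where 19.6% of genes did, with log2 differences of 0.71 for Drd2 (SE 0.46, adjusted p = 0.284) and 0.56 for Pde10a (SE 0.25, adjusted p = 0.116). That model takes a single spread per gene from all 20 libraries, white matter included. Without stimulated animal 1, both genes were called in limma (adjusted p = 0.0253 and 0.0283).

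The caudal cord lay between the other cord regions for Drd2 and Pde10a. Drd2 was at 2.09, 1.82, 1.85 and 2.27 FPKM in region 5 and Pde10a at 3.98, 3.45, 3.24 and 3.37. The test called 0 of 6 members between regions 3 and 5 (4.32% of all genes) and 0 of 6 between regions 4 and 5 (7.99% of all genes). With the animal as a block, 1966 genes were called between regions 4 and 5 in place of 1216, and still 0 members.

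Of the 26 other medium spiny neuron genes, 12 were higher in region 3 than in region 4 and 0 were lower in limma, where 12.8% of all genes were higher and 6.78% lower. They included Arpp21 (log2 difference 0.92), Rasd2 (1.23), Pdyn, the dynorphin precursor (0.86), and Chrm4 (0.91). The general neuron markers moved with them, with 4 of 5 called higher in region 3, and the summed level of the 5 was 807 to 1031 FPKM in region 3 and 552 to 686 in region 4. Their part in the result was not tested. Without control 1 the test called 6 of the 26 and without control 2 it called 2.

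The comparison for which the study was made, stimulated with control animals, was run within each region on 2 against 2 animals. In region 1 the fitted log2 differences were positive for all 6 members: 0.76 for Drd1, 1.62 for Drd2, 2.27 for Adora2a, 1.13 for Rgs9, 0.28 for Ppp1r1b and 0.37 for Pde10a. Their standard errors were 0.76, 1.11, 0.59, 1.26, 0.87 and 0.69. No member was called in region 1, and neither was any of the 15210 genes (0%) in limma, while 828 genes had an unadjusted p under 0.05. Adora2a had the smallest p of the members (unadjusted p = 0.0207, limma adjusted p = 0.712). It was also the only member with both stimulated libraries above both controls, which 21.2% of all genes shared, and an exact permutation test of 2 against 2 libraries cannot go below 0.333.

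For 4 of the 6 members the sign of the region 1 difference rested on the stimulated 1 library. Without it, the log2 difference turned to -0.23 for Drd1, -0.59 for Rgs9, -0.92 for Ppp1r1b and -0.58 for Pde10a, and was 0.14 for Drd2. Adora2a remained at 1.51 (SE 0.30, limma adjusted p = 0.0953), with a single stimulated library whose spread was assumed to be that of the controls. In that fit 228 of all genes were called and 0 members.

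**Figure D5:**
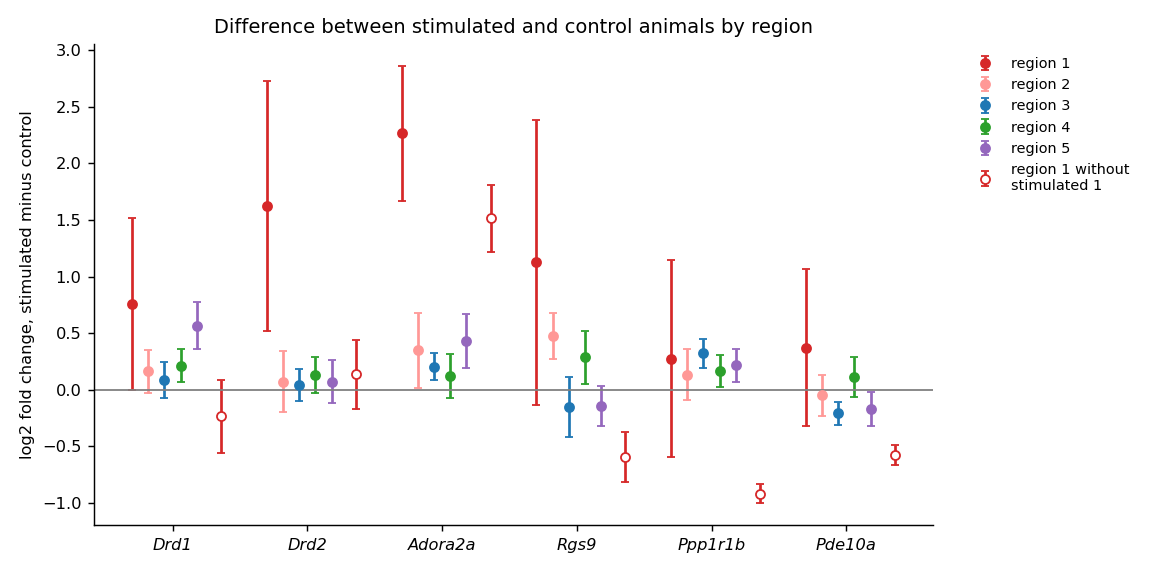
Log2 fold change of stimulated over control animals for each member in regions 1 to 5, with bars of 1 standard error from limma. Open circles give region 1 without stimulated 1, where Drd1, Rgs9, Ppp1r1b and Pde10a lie below 0 and Adora2a stays at 1.51.

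In regions 2 to 5 the members differed little between the groups. The test called 0 of 6 members in each of these regions in limma. Over all genes it called 0 in regions 2, 3 and 4 and 3 (0.0197%) in region 5, against 215, 522, 341 and 546 before adjustment at the same threshold of 0.05. The largest member differences were 0.57 for Drd1 in region 5 (SE 0.20, limma adjusted p = 1) and 0.48 for Rgs9 in region 2 (SE 0.20, limma adjusted p = 0.949). Drd1 in region 5 was at 0.365 and 0.491 FPKM in the controls and at 0.572 and 0.689 in the stimulated animals, without overlap. Both stimulated libraries were above both controls for Drd1 and Rgs9 in region 2 (20.2% of all genes), Adora2a and Ppp1r1b in region 3 (5.14%), Drd1 and Drd2 in region 4 (12.5%) and Drd1 and Adora2a in region 5 (18.5%). Both were below the controls for Pde10a in region 3 (24.7%) and in region 5 (6.07%).

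Whether stimulation acted differently in region 1 and region 2 was tested on the differences within animals. The largest member difference of effects was 1.92 for Adora2a (SE 0.84, unadjusted p = 0.0844, limma adjusted p = 0.896). No member and no gene (0%) was called in limma, while the unadjusted p was under 0.05 for 521 genes. With 2 within-animal differences in each group, this fit is too small to make calls, and its count of 0 says nothing about whether the effects differed.

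The relatives of the members were mostly low or of a different pattern. The dopamine receptor genes Drd3 and Drd4 were at or near 0.1 FPKM in white matter, at most 0.114, and Drd5 was at 0.178 to 0.543. Among adenosine receptors, Adora1 was at 19.7 to 26.9 FPKM in white matter and at 27.8 to 41.3 in cord, Adora2b at 1.05 to 1.71 and 1.73 to 2.72, and Adora3 was listed at 0.1 in every library. Rgs7, of the same family as Rgs9, was at 11.8 to 24.5 FPKM in white matter, above the highest Rgs9 value of 11.0, and Ppp1r1a, a related phosphatase inhibitor, was at 8.16 to 14.5. None of 6 relatives tested was 2-fold above the rest in the region 1 library of stimulated 1. In that library 2 of 6 were highest, where 22.8% of all genes were. Between regions 1 and 2, limma called 0 of 6.

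The other parts of the cyclic AMP cascade were 18 genes of G proteins, adenylyl cyclase, kinases, phosphatases and phosphodiesterases. As a list they did not follow the members. In the region 1 library of stimulated 1, 5 of 18 were highest, close to the share of 22.8% over all genes. Gng7, a G protein subunit, was at least 2-fold above the rest, the G protein gene Gnal was at 15.2 FPKM against at most 8.70, the adenylyl cyclase gene Adcy5 at 28.3 against 17.0 and the phosphodiesterase gene Pde1b at 30.6 against 21.0. These 4 are also among the 26 other medium spiny neuron genes above. The fifth, Ppp1ca, was at a ratio of 1.03 to the next library. For the 18 genes the median ratio to the other 7 libraries was 1.05, compared with 6.18 for the members and 1.08 for all genes. Between regions 1 and 2, limma called 1 of 18, the phosphodiesterase Pde4b, higher in region 1 by 0.24 (SE 0.07, adjusted p = 0.0362). In the same test without the region 1 library of stimulated 1 its adjusted p was 0.0814. Their medians over the comparison were -0.07 for the cascade and 0.06 for all genes.

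The members also varied together across the 8 white matter libraries, as a description over libraries of 4 animals. Each member's log2 profile correlated with the mean of the 6 at r = 0.988 for Rgs9, 0.981 for Drd2, 0.979 for Drd1, 0.894 for Ppp1r1b, 0.847 for Adora2a and 0.775 for Pde10a. The mean includes the member itself, and without the region 1 library of stimulated 1 these values became 0.951, 0.488, 0.764, 0.408, -0.07 and -0.14. Among the 13144 genes whose white matter mean reached 1 FPKM, the 10 most like the members were Adgrv1, Arsk, Actn2, RGD1305645, Lrrc10b, Tmem29, Plcd4, Oxsr1, Cenpb and Hsdl2, with r of 0.926 to 0.968. Their highest value was in that same library, for example 9.49 FPKM for Adgrv1 against at most 4.66 and 8.77 for Lrrc10b against at most 0.734. When that library was left out, 0 of these 10 stayed among the 10 most alike.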

How the data were processed

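RNA-seq was analysed from 20 libraries of 4 rats, 5 regions each. The authors depleted ribosomal RNA, aligned paired 51 bp reads to Rnor6 with TopHat 2.1.0 and deposited FPKM values per gene from Cufflinks 2.2.1, with values under 0.1 already raised to 0.1. The annotation version is not given in the sources used here, and the counting strand neither, so overlapping genes are uncertain. All 20 columns carried sample titles, and 0 columns were without a sample.

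FPKM values were log2-transformed, and genes reaching 1 FPKM in any library were kept (15210 of 30443 entries). Symbols occurring more than once were read from the entry with the highest mean. Regions were compared with limma 3.58.1 in R 4.3.3 (lmFit, eBayes with trend) fitted to all 20 libraries, each region with its own mean. Stimulation was compared on the 4 libraries of a region, and its difference between regions 1 and 2 on differences within animals. P-values were adjusted by Benjamini-Hochberg over all genes tested, with 0.05 as threshold. White matter against cord is untested for the members, since they were chosen on it. Their values in regions 1 and 2 were also known at that choice, so their p-values between these regions are descriptive. Pseudocount, filter, scaling, trend, block, model and left-out animals were varied. The members and gene lists were chosen with earlier results of these data known. Named genes were the 6 members, list genes that passed a test or, for relatives and the cascade, had high levels, and the 10 genes most like the members by Pearson correlation over the white matter libraries. List genes set beside the library that stood apart were named after their values were seen.

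Regions share animals by their titles. Deviations from the region means, over stimulated and control animals together, correlated at 0.651 between regions 1 and 2 of the same animal. Between the cord regions they correlated at 0.229, 0.0779 and -0.0026 (3 and 4, 3 and 5, 4 and 5). The animal was fitted as a block as an alternative. Each fit was tested on simulated data in which 200 genes changed by a log2 difference of 2. The fits between regions recovered most of them, those of stimulation fewer, and that of the difference in stimulation effect none. The noise was independent between libraries, without the correlation within an animal, and smaller changes were not simulated. Replicates are separate animals, 2 in a group.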

Additional observations from a re-analysis of the deposited data

Results flagged for a closer look

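In region 1, the library of stimulated animal 1 lay far from the other 3 for Drd1 (6.64 FPKM), Drd2 (4.05 FPKM) and Rgs9 (11.0 FPKM). In each case the gap to the next library took a larger share of the range of the 4 values than Dixon's 95% critical value for 4 samples. The shares were taken on FPKM values and not on the log2 scale of the fits, and the flags may depend on that scale. The test was made in 30 groups of 4 libraries, the 6 members in 5 regions, and these 3 were its only flags. A chance rate of about 1 in 20 such groups assumes normally distributed values, which was not tested here. The 3 flags come from the same library, the one singled out above on these very values. The members were also chosen with those values known, so the flags restate that observation and are no further support for it. The summed oligodendrocyte genes were at 3073 FPKM in that library and at 742 to 1973 in the other 7 white matter libraries, and their part in the result was not tested. The other stimulated animal was at 1.68, 0.517 and 1.02 FPKM for Drd1, Drd2 and Rgs9 in region 1, none of them above both controls, and the region 2 library of stimulated 1 was at 1.71, 0.472 and 1.44. The block of tissue and the 1 library made from it cannot be told apart.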

How the results depend on the processing

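On the log2(FPKM + 1) scale, the white matter difference from cord was 1.07 for Drd1 and -0.86 for Drd2. Between regions 1 and 2, the members called rose from 0 to 1 in limma with a mean per region and stimulation group (Adora2a) and to 1 without the region 1 library of stimulated 1 (Pde10a, at -0.51), an alternative chosen after seeing the data. Leaving out whole animals called 0 members there. The other medium spiny neuron genes called higher in region 1 fell from 1 to 0 on the log2(FPKM + 1) scale and after quantile normalization, and were 0 to 1 with an animal left out. Those called lower were 0 with an animal left out and 1 without the region 1 library of stimulated 1. In cord region 3 against 4, the range over left-out animals was 0 to 2 members and 2 to 12 other medium spiny neuron genes. Of the 10 genes most like the members, 5 stayed after quantile normalization, 0 without stimulated 2 and 0 without the region 1 library of stimulated 1. The cause of these changes was not tested.

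Log2 differences changed sign for these members. Between regions 1 and 2, Ppp1r1b ran from -0.05 to 0.65 and Pde10a from -0.46 to 0.044 with an animal left out, and Ppp1r1b was -0.12 without the region 1 library of stimulated 1. For stimulation in region 1 with an animal left out, Drd1 ran from -0.23 to 1.75, Rgs9 from -0.59 to 2.84, Ppp1r1b from -0.92 to 1.47 and Pde10a from -0.58 to 1.32, the lowest value being that without stimulated 1 in each. Over all alternatives no member was called for stimulation in any region.

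Counts over all genes moved more than the members did: between regions 1 and 2 they ran from 26 to 3674 (1310 with all libraries), in cord region 3 against 4 from 523 to 4909 (2984), 3 against 5 from 54 to 1237 (657) and 4 against 5 from 5 to 1966 (1216). For stimulation they ran from 0 to 228, 548, 3, 140 and 443 in regions 1 to 5. Control 1 and stimulated 1 share only a number. Their deviations from the group means correlated at -0.21, -0.10, -0.11, 0.32 and -0.16 in regions 1 to 5. The replicate block gave 443 genes in region 5 in place of 3 and 0 members in any region. The crossed pairing, also added after seeing the data, gave 118 genes in region 4, 0 in region 5 and 0 members. With 2 animals in a group and no counts behind FPKM, small differences of the members were not detectable.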

Other observations

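In white matter, the ratio of Adora2a to Drd2 was higher in stimulated animal 2 than in the other animals, a pattern picked out after the values were seen. In this animal Adora2a was at 2.45 FPKM in region 1 and at 1.24 in region 2, while neither control passed 1.01 FPKM in either region. Drd2, its partner in the indirect pathway, was at 0.517 and 0.348 FPKM in the same libraries, inside the control range of 0.341 to 0.564. The ratio of Adora2a to Drd2 was therefore 4.73 and 3.55 in stimulated 2, compared with 1.29 to 2.57 in the other 6 white matter libraries. In the region 1 library of stimulated 1, where both transcripts were high, the ratio was 1.71. In the cord of stimulated 2 the ratio was 0.413, 0.470 and 0.475 in regions 3, 4 and 5. These values were inside the range of 0.310 to 0.553 over all cord libraries. No test was made of this ratio.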
